A study of Mus musculus with 18 samples.

Results

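The genes described here are 40 genes of the muscle sarcomere, chosen by name and role with earlier results of these data known. They encode parts of the thin filament, the Z-disc, the M-band, titin with its partners, factors of sarcomere assembly and a smoothelin-like protein. Shares of calls among them therefore describe this list and are not a test of it. All 40 symbols were found among the 55414 genes of the count table, and all 40 passed the filter of at least 10 counts over all libraries that left 21772 genes for testing. The RNA came from C2C12 cells, an established mouse myoblast line that fuses into myotubes once serum is lowered. At the start of differentiation the cells received a non-targeting siRNA (siNTC), a pool of siRNAs against Erk3 (siErk3) or a pool against Mk5 (siMk5), and they were used after 6 days. For the last 16 h, without serum, they were given either palmitic acid at 0.5 mM carried on BSA (PA) or BSA by itself (BSA). Each of the 6 groups, siNTC, siErk3 and siMk5 in BSA and the same 3 in PA, had 3 libraries. The cells carried no engineered allele, and silencing was transient. No source used here says if the 3 libraries of a group were grown as separate cultures, so p-values measure the spread between these libraries, which may be technical.

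In the sarcomere, actin thin filaments are anchored at the Z-disc by alpha-actinin, and myosin thick filaments are tied together at the M-band, while titin spans from one to the other. Nebulin, tropomodulins and leiomodins set and cap the length of the thin filament. Myosin-binding proteins sit along the thick filament, and myomesins with obscurin-type proteins link its middle. Chaperones and ubiquitin ligase adaptors help to fold and place these proteins, and ankyrin repeat proteins at titin carry signals of stretch.

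Library sizes were 13041979 to 28496727 counts, of which the 40 genes took 1.52% to 2.03%. Of the targeted genes, Mapk6 (Erk3) was lower by a log2 fold change of -1.20 with siErk3 in BSA and -0.95 in PA, and Mapkapk5 (Mk5) gave -0.61 and -0.49 with siMk5, both with FDR = 0.469. Mapkapk5 rested on 27 to 86 counts in the siMk5 and siNTC libraries, which did not overlap in CPM in either medium. The paper reports silencing of both targets at the protein level by Western blot. FDR here is the Benjamini-Hochberg adjusted p of edgeR's quasi-likelihood test over all genes tested, and a gene is called changed at an FDR below 0.05 with a fold change above 1.3. The 12 myotube markers were all above 1 CPM (counts scaled to library size, TMM-normalized) by the mean of every group, with sums of 5450 to 7980 CPM. Of the 8 markers of non-muscle cells, 5 passed the count filter and summed to 2.22 to 4.05 CPM. In every siNTC BSA library, 3 of the 8 were at 0. The 18S ribosomal RNA took 8.39% to 12.87% of counts in siMk5 BSA, 2.56% to 7.17% in siNTC BSA and 1.5% to 2.96% in siErk3 BSA. The siMk5 BSA library 3 stood apart, since it held the lowest CPM of its group for 33 of the 40 genes. Xirp2 had 18.2 CPM and Mybpc2 5.73 CPM in it, against 40.2 and 43.2 CPM and 11.9 and 12.3 CPM in the other 2 libraries of that group. The siErk3 BSA library 3 stood apart in the other direction, with the highest CPM of its group for 35 of the 40 genes. Calls among the 40 genes that either library makes or ends are given beside the result, with the list medians without them. PA groups were uneven as well. In siMk5 PA, library 2 held the lowest CPM for 26 of the 40 genes and library 3 the highest for 28, and no medians without these are given. Such ranks were not counted over all genes.

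The 40 genes spanned 0.030 to 2077 CPM per kb of exon in control myotubes. In siNTC BSA, their median level per length was 33.7 CPM per kb, against 1.35 CPM per kb for all genes tested, and 37 of 40 stood above the median gene. Acta1, the skeletal alpha-actin of the thin filament, was highest at 2077 ± 201 CPM per kb (SD, n = 3). Actc1, the cardiac alpha-actin that immature skeletal muscle also makes, came next at 559.7 ± 17.6 CPM per kb. Des, the desmin intermediate filament that ties neighboring Z-discs, stood at 536 ± 26.3 CPM per kb, and its libraries overlapped with those of Actc1. Mybph, a myosin-binding protein of fast fibers, had 428 ± 10.9 CPM per kb, and Cryab, a small heat shock protein that protects desmin, had 199.5 ± 22.02 CPM per kb. In this order, 18 of the 39 pairs of neighboring genes overlapped between libraries. At the lower end, 7 genes lay under 5 CPM per kb, among them Mybpc2, Xirp2, Ankrd23, Tmod4 and Smtnl2. Myoz3, a calsarcin of fast fibers, had only 52 counts in all 18 libraries, so no fold of it is read. For genes with so few reads, small changes were not detectable at this depth. Acta1 and Actc1 encode near-identical proteins. Any pairs that fit both genes could be counted, and how many did so was not examined. Ankrd23 shared 78.2% of its exonic bases with Gm42417 on the same strand.

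**Figure D1:**
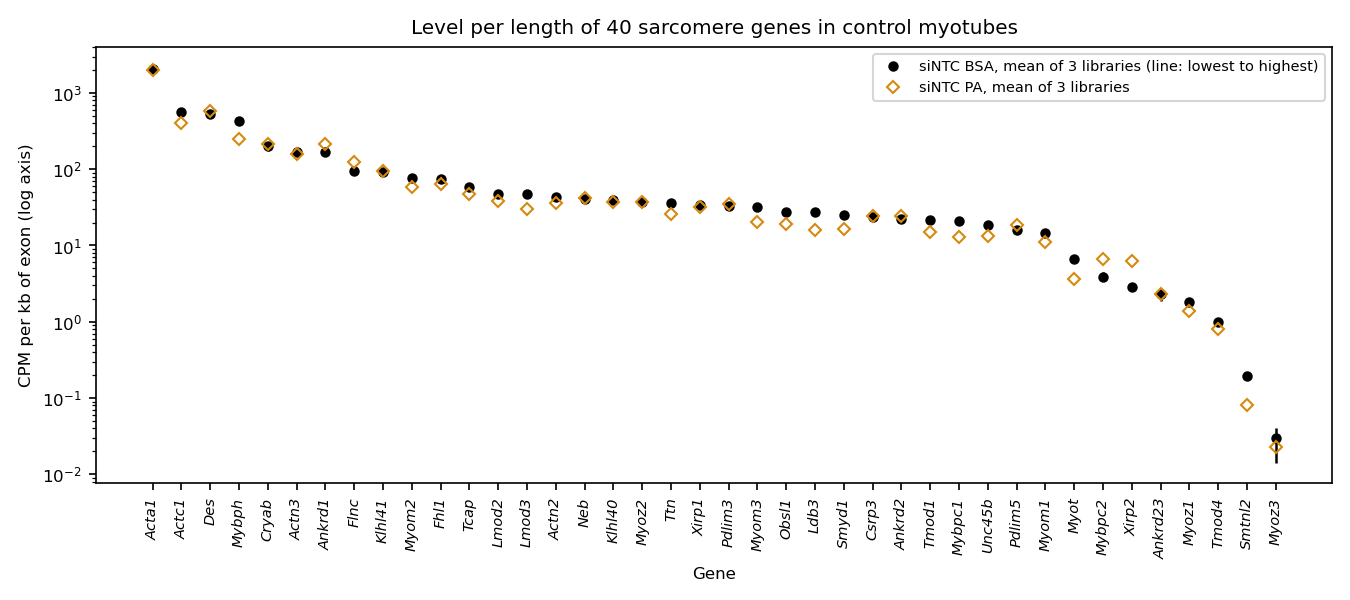
Level per length (CPM per kb of exon, log axis) of the 40 genes, ordered by their mean in siNTC BSA. Black points are means of 3 siNTC BSA libraries with a line from the lowest to the highest library, and open diamonds are means of 3 siNTC PA libraries. Acta1 stood at 2077 CPM per kb and Myoz3 at 0.030 CPM per kb in siNTC BSA.

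The 2 sarcomeric actins are shown by their promoters because both hold the CArG box, the site of serum response factor, while 1 of them was called with PA and the other was not. Each sequence is the 250 bases before the start in the RefSeq promoter table, and its place in GRCm39 was found by exact match, on the minus strand in both cases. Acta1 lies at chr8:124621515-124621764, and its start falls 24 bases upstream of the gene in the count table. Actc1 lies at chr2:113883357-113883606, and that start falls 673 bases inside the gene. Capitals mark the CArG box in both, and in Acta1 also the MCAT motif (CATTCC) and 2 E-boxes (CANNTG).
Acta1: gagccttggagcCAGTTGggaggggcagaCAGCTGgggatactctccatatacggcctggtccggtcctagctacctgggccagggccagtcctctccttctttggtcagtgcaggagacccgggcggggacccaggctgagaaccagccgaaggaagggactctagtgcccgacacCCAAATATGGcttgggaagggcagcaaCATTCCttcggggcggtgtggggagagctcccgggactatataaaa
Actc1: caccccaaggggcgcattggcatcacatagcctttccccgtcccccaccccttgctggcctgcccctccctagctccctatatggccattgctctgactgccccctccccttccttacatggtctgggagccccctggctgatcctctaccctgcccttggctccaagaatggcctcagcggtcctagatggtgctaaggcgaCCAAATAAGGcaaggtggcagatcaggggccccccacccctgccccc
The CArG box ended 64 bases before the start in Acta1 and 38 bases before it in Actc1. Of the 30 genes with a promoter in the table, 5 held a CArG box on either strand (Acta1, Actc1, Fhl1, Ldb3 and Myom1), which is 16.7% against 1.4% of 27025 promoters. The MEF2 motif was found in 5 (Klhl41, Myom3, Myoz2, Ttn and Xirp2), 16.7% against 3.0%. MCAT was found in 7, 23.3% against 12.6%. The E-box was matched as any CANNTG, a class that includes sites of MyoD and myogenin but is wider than these. It was found in 23, 76.7% against 66.0%. Such matches describe letters only. Promoters of Actn3, Cryab, Lmod3, Myom2, Myot, Myoz1, Myoz3, Neb, Tcap and Xirp1 were not analysed here.

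Silencing of Erk3 raised 3 of the 40 genes in BSA and lowered none by these criteria, and the same 3 genes rose in PA. They are Actn2, an alpha-actinin of skeletal and cardiac Z-discs, Mybpc1, the slow myosin-binding protein C, and Smtnl2, a smoothelin-like protein. The 3 of 40 are 7.5%, where 0.785% of all genes tested changed in BSA (0.588% rose and 0.198% fell) and 0.556% in PA (0.432% rose and 0.124% fell). The list was chosen with earlier results known, so these shares are described and not tested. The median log2 fold change of the list was 0.03 in BSA (0.02 over all genes) and -0.01 in PA (0.00 over all genes). Rises and falls were mixed, with 16 genes below 0 in BSA and 20 in PA. At an unadjusted p under 0.05 in edgeR there were 14 of 40 in BSA (35.0%, against 10.6% of all genes). That count was 12 without siErk3 BSA library 3, and in PA it was 19 of 40 (47.5%, against 8.28%). Without siErk3 BSA library 3 the median in BSA was -0.01 (0.01 over all genes), 22 of the 40 genes lay below 0 where 16 did with it, and the same 3 genes were called, Actn2 at 0.42, Mybpc1 at 0.42 and Smtnl2 at 1.44 (FDR = 0.0146). The summed CPM of the myotube markers was higher with siErk3 as well. Their sum was 7100 to 7980 CPM in siErk3 BSA against 6580 to 6820 CPM in siNTC BSA, and 6060 to 6430 CPM in siErk3 PA against 5450 to 5470 CPM in siNTC PA, without overlap in either medium. Of the 12 markers, Myh3 and Myh8 were called higher in BSA and Myh8 in PA. The list itself split evenly in BSA, 6 above 0 and 6 below, with a median of 0.00 (0.02 over all genes). Without siErk3 BSA library 3, 7 of the 12 lay below 0 with a median of -0.04, and Myh3 was not called. In PA 8 lay above 0 and 4 below, with a median of 0.08 (0.00 over all genes). The part of cell state in the rises of Actn2, Mybpc1 and Smtnl2 was not tested. The comparisons of siErk3 with siNTC in BSA and in PA used separate libraries.

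Actn2 was at 152, 163 and 171 CPM in siNTC BSA and at 210.0, 222 and 246 CPM in siErk3 BSA. All 3 silenced libraries were above all 3 controls, with a log2 fold change of 0.48 ± 0.05 (SE), FDR = 1.74e-06. In PA it was at 129, 139 and 139 CPM with siNTC and 187, 181 and 175 CPM with siErk3, again without overlap (0.42 ± 0.05 (SE), FDR = 1.77e-05). With siMk5 it was at 183, 175 and 164 CPM in BSA and 154, 146 and 152 CPM in PA, log2 fold changes of 0.10 and 0.15 that did not pass the test.

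Mybpc1 separated all 6 groups. Its CPM was 124, 125 and 136 in siErk3 BSA, 104, 86.3 and 90.5 in siNTC BSA and 72.8, 69.4 and 68.7 in siMk5 BSA. In PA, it was 85.5, 80.4 and 80.6 with siErk3, 56.8, 58.6 and 59.1 with siNTC and 50.5, 49.0 and 46.4 with siMk5. Ordered by their means, the groups ran siErk3 BSA, siNTC BSA, siErk3 PA, siMk5 BSA, siNTC PA and siMk5 PA, and no library of one group overlapped with the next. The log2 fold change of siErk3 against siNTC was 0.46 ± 0.06 (SE), FDR = 4.46e-06 in BSA and 0.50 ± 0.06 (SE), FDR = 2.49e-06 in PA.

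Smtnl2 was expressed at a low level, with 11, 17 and 16 counts in siNTC BSA and 41, 54 and 53 counts in siErk3 BSA. As CPM, these were 0.773, 0.708 and 0.757 against 1.73, 2.28 and 1.90, a log2 fold change of 1.40 ± 0.28 (SE), FDR = 0.00377. In PA the CPM was 0.495, 0.274 and 0.152 with siNTC and 1.40, 1.19 and 1.14 with siErk3 (1.98 ± 0.35 (SE), FDR = 0.00168). No silenced library overlapped with a control in either medium, but the PA controls rested on 11, 6 and 3 counts. With siMk5 it was at 0.916, 0.604 and 0.671 CPM in BSA and 0.854, 0.280 and 0.774 CPM in PA, and the log2 fold change in PA of 1.01 ± 0.41 did not pass (FDR = 0.595).

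The promoters of these 3 genes are printed because they rose together in both media. All lie on the minus strand of GRCm39, at chr13:12355614-12355863 for Actn2, chr10:88441015-88441264 for Mybpc1 and chr11:72302540-72302789 for Smtnl2. The starts of Mybpc1 and Smtnl2 coincide with the ends of the genes in the count table, and that of Actn2 lies 28 bases inside. Capitals mark E-boxes in Actn2 and Mybpc1 and the MCAT motif, read on the opposite strand, in Smtnl2.
Actn2: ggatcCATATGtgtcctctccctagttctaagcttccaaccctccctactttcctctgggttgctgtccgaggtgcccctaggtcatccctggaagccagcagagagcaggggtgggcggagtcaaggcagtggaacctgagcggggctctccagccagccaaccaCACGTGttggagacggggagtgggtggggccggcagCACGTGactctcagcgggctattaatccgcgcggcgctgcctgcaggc
Mybpc1: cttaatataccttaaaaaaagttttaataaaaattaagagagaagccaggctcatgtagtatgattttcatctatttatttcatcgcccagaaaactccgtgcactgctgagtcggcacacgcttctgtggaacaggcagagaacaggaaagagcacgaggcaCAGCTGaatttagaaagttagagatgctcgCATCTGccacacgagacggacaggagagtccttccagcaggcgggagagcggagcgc
Smtnl2: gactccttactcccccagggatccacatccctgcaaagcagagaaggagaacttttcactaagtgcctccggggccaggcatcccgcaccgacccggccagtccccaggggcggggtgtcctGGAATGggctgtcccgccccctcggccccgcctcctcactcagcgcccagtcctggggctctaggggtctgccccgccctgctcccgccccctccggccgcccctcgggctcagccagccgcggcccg
Actn2 held 3 E-boxes and Mybpc1 held 2, and neither had a CArG box, a MEF2 motif or an MCAT motif in this window. Smtnl2 held 1 MCAT motif and 0 E-boxes, so none of the motifs searched was found in all 3.

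**Figure D2:**
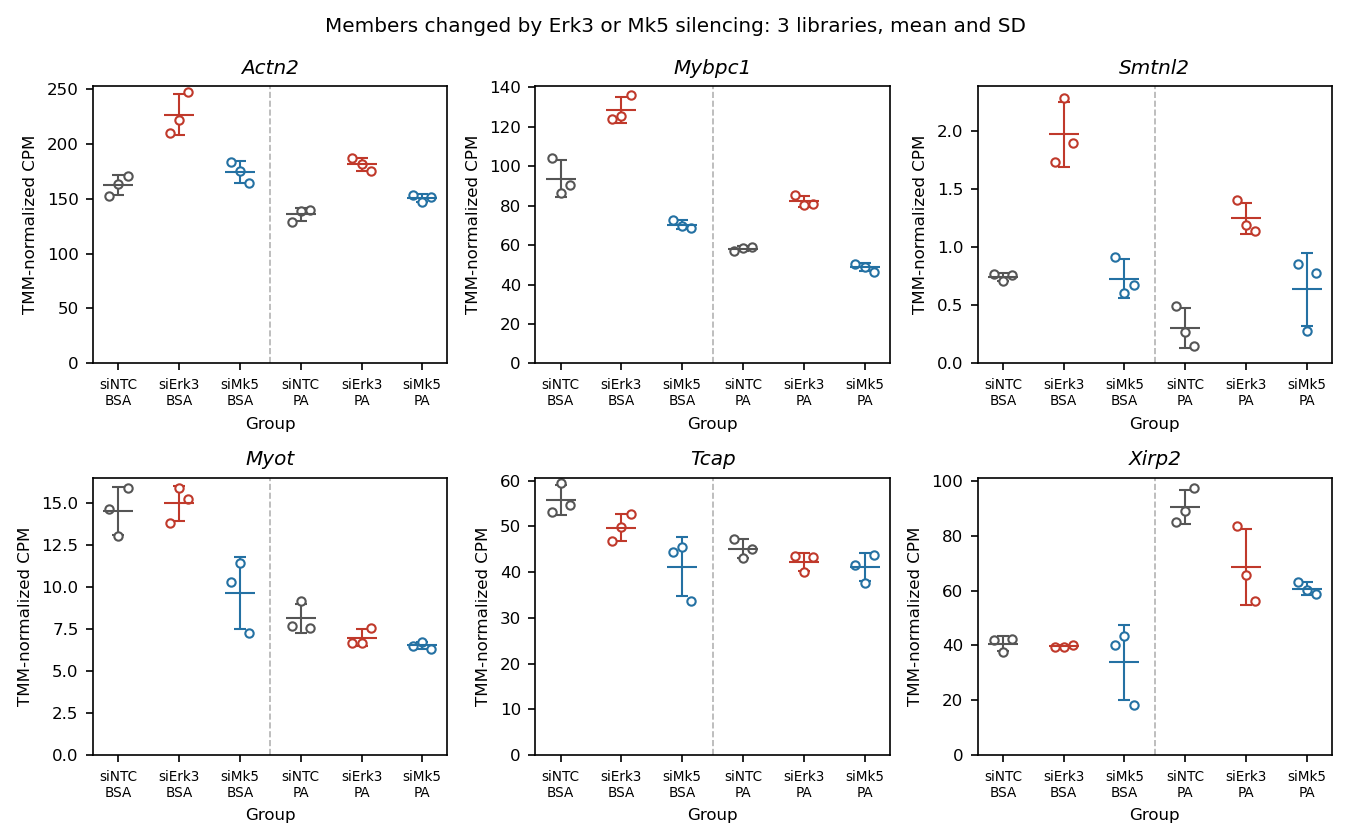
CPM (TMM-normalized, linear axis from 0) of the 6 genes changed in a comparison of silencing with siNTC. Open circles are the 3 libraries of each group, and the bar and whiskers are their mean and SD; the dashed line parts BSA from PA. Actn2, Mybpc1 and Smtnl2 stood higher with siErk3 in both media, and siMk5 BSA library 3 was lowest of its group for Myot, Tcap and Xirp2.

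Several genes passed the FDR with siErk3 but stayed under the fold criterion. Smyd1, a methyltransferase needed for myosin assembly, was at 116, 110.2 and 114 CPM in siNTC BSA and 131, 135 and 149 CPM in siErk3 BSA. In PA it was at 76.4, 77.1 and 72.0 CPM and 93.3, 86.7 and 93.6 CPM. The groups did not overlap in either medium, and the log2 fold changes were 0.29 ± 0.05 (SE), FDR = 0.00111 in BSA and 0.28 ± 0.05 (SE), FDR = 0.00309 in PA. Actc1 (0.20, FDR = 0.00798) and Ankrd2, a titin-bound ankyrin repeat protein (0.25, FDR = 0.0472), did so in BSA, with FDR = 0.0925 and 0.114 without siErk3 BSA library 3. Mybph (0.20, FDR = 0.0418) and Klhl41, a Kelch protein that stabilizes thin filaments (-0.22, FDR = 0.0452), did so in PA.

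With Mk5 silencing in BSA, 3 of 40 genes fell and 0 rose, 7.5%, where 0.0643% of all genes tested changed in either direction, 0.0505% fell and 0.0138% rose. Of the 40 genes, 32 had a log2 fold change below 0, and the median was -0.09 (0.01 over all genes). Without siMk5 BSA library 3, 25 of 40 lay below 0 with a median of -0.03 (0.01 over all genes), and 1 of 40 genes was called, where 0.0324% of all genes were. The myotube markers summed to 6260 to 6810 CPM in siMk5 BSA, which overlapped with siNTC BSA, with Mb (myoglobin) lower at -0.40 (-0.34 and not called without library 3), and to 5700 to 5980 CPM in siMk5 PA, above siNTC PA. The genes that fell were Mybpc1, Myot (myotilin, which binds alpha-actinin and filamin at the Z-disc) and Tcap (telethonin, the cap that joins the ends of titin there). In PA 1 gene of 40 fell, Xirp2, 2.5%, where 0.547% changed, 0.491% fell and 0.0551% rose. None of the 3 genes changed in BSA was called in PA. Both silencings were set against the same siNTC libraries in each medium.

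Mybpc1 gave -0.41 ± 0.06 (SE), FDR = 0.000275 on the log2 scale in BSA, with all 3 silenced libraries below the controls listed above. In PA its value was -0.26 ± 0.06 (SE), FDR = 0.0279, below the fold criterion. Tcap was at 53.1, 59.4 and 54.8 CPM in siNTC BSA and 44.4, 45.4 and 33.7 CPM in siMk5 BSA, with the third library lowest (-0.44 ± 0.08 (SE), FDR = 0.00828). Myot was at 14.7, 13.04 and 15.9 CPM against 10.3, 11.4 and 7.27 CPM, where the groups again did not overlap (-0.58 ± 0.11 (SE), FDR = 0.0247). Without siMk5 BSA library 3, the FDR was 0.115 for Tcap (log2 fold change -0.32) and 0.284 for Myot (-0.42), while Mybpc1 kept -0.39 with FDR = 0.00611, so 1 of 40 genes was called. Leaving out siNTC BSA library 1 also left 1 call, since Mybpc1 then stood at -0.33, under the fold criterion, and Myot had FDR = 0.096. Tcap had FDR = 0.131 without siNTC BSA library 2, and Myot had FDR = 0.186 without siNTC BSA library 3. The share of 18S RNA moved with this comparison, and with that share as a covariate Tcap alone was called, with Mybpc1 at -0.30 (FDR = 0.0423) and Myot at -0.57 (FDR = 0.15). In siErk3 against siNTC in BSA, where the 18S share had the lower median in the silenced group, the same covariate left Actn2, with Mybpc1 at 0.35 (FDR = 0.00113) and Smtnl2 at 1.54 (FDR = 0.056).

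Xirp2 encodes a large actin-binding repeat protein at the Z-disc edge and the myotendinous junction. In PA it was at 85.1, 89.0 and 97.3 CPM with siNTC and 63.3, 60.2 and 58.6 CPM with siMk5, without overlap (-0.57 ± 0.14 (SE), FDR = 0.0486). The call stood close to the threshold, and its FDR was 0.0585 to 0.217 when any 1 of the 6 libraries was left out. With siErk3 the PA libraries had 83.6, 65.7 and 56.3 CPM, a log2 fold change of -0.40 ± 0.14 with FDR = 0.313. In BSA, siNTC libraries had 41.9, 37.6 and 42.4 CPM, siErk3 libraries 39.5, 39.3 and 40.2 CPM and siMk5 libraries 40.2, 43.2 and 18.2 CPM, the last value being the library that stood apart.

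When the silenced groups were compared with each other, siErk3 was above siMk5 for Mybpc1, Myot and Smtnl2 in BSA (3 of 40, 7.5%, against 0.588% of all genes in either direction and 0.482% higher) and for Mybpc1 in PA (1 of 40, 2.5%, against 1.03% and 0.854%). The log2 difference of Mybpc1 was 0.87 ± 0.06 (SE), FDR = 1.21e-11 in BSA and 0.75 ± 0.06 (SE), FDR = 8.73e-11 in PA. Myot differed by 0.63 ± 0.11 (SE), FDR = 0.00101 and Smtnl2 by 1.41 ± 0.27 (SE), FDR = 0.00417 in BSA. Without siMk5 BSA library 3, Myot stood at 0.47 (FDR = 0.0148), and the same 3 genes were called. With the 18S share as a covariate, Mybpc1 alone was called in BSA, while Myot at 0.62 (FDR = 0.354) and Smtnl2 at 1.65 (FDR = 0.337) had differences of a like size that did not pass. Actn2 differed by 0.38 ± 0.05 in BSA (FDR = 7.42e-05), which stayed just under the fold criterion. These comparisons share libraries with those against siNTC.

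**Figure D3:**
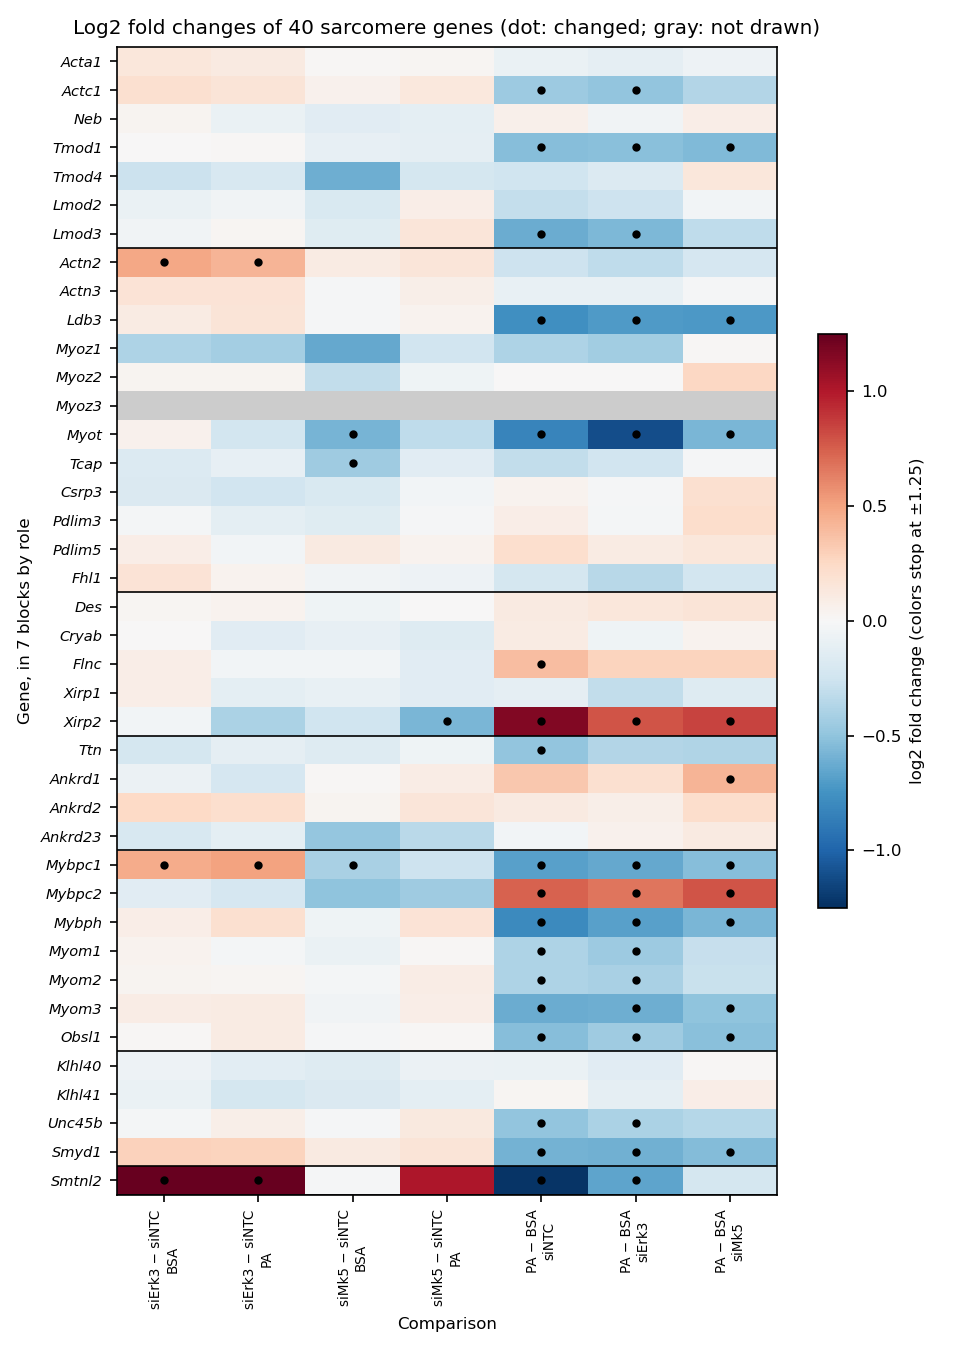
Log2 fold changes of the 40 genes (rows, in 7 blocks by role, from the thin filament at the top to the smoothelin-like gene at the bottom) in 7 comparisons (columns). Colors stop at ±1.25, black dots mark changed genes, and Myoz3, with 52 counts, is left gray. Silencing changed 3, 3, 3 and 1 genes in the first 4 columns, and PA changed 18, 16 and 11 in the last 3.

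Palmitic acid changed 11 to 18 of the 40 genes, mostly downward. In siNTC cells, 18 of 40 changed (45.0%, against 30.6% of all genes tested), 15 lower (37.5%, against 15.1%) and 3 higher (7.5%, against 15.5%). With siErk3, 16 changed (40%, against 32.1%), 14 lower (35.0%, against 16.3%) and 2 higher (5.0%, against 15.8%). With siMk5, 11 changed (27.5%, against 29.7%), 8 lower (20%, against 14.6%) and 3 higher (7.5%, against 15.1%), and without siMk5 BSA library 3 it was again 11, 9 lower and 2 higher. The median log2 fold change of the 40 genes was -0.25, -0.29 and -0.05 in that order, and over all genes it was -0.03, -0.01 and -0.01. Without siErk3 BSA library 3 the median with siErk3 was -0.25, and without siMk5 BSA library 3 that with siMk5 was -0.14, with 0.00 over all genes in both cases. The comparisons of PA with BSA used separate libraries, and 10 genes changed in all 3, always in the same direction, 25% against 22.7% of all genes. Of these, 8 fell (Ldb3, Mybpc1, Mybph, Myom3, Myot, Obsl1, Smyd1 and Tmod1) and 2 rose (Mybpc2 and Xirp2). A further 6 genes changed in 2 comparisons and 3 in 1, and 21 in none, so that 47.5% changed in at least 1, where 40.3% of all genes did.

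Markers of cell state moved with PA in the same libraries. Of all genes tested, 15.1% fell with PA in siNTC, 16.3% in siErk3 and 14.6% in siMk5. Of 10 myoblast and proliferation markers, 7 fell in each PA comparison (70.0%). The sum of these 10 was 1020 to 1070 CPM in siNTC BSA and 493 to 581 CPM in siNTC PA. Of 12 myotube markers, 7 fell with siNTC (58.3%), 4 with siErk3 (33.3%) and 4 with siMk5 (33.3%). The sum of these 12 was 6580 to 6820 CPM in siNTC BSA and 5450 to 5470 CPM in siNTC PA. The part of these markers' cell state in the results on sarcomere genes was not tested. In bulk RNA, fewer myotubes and less RNA of these genes per myotube cannot be told apart.

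**Figure D4:**
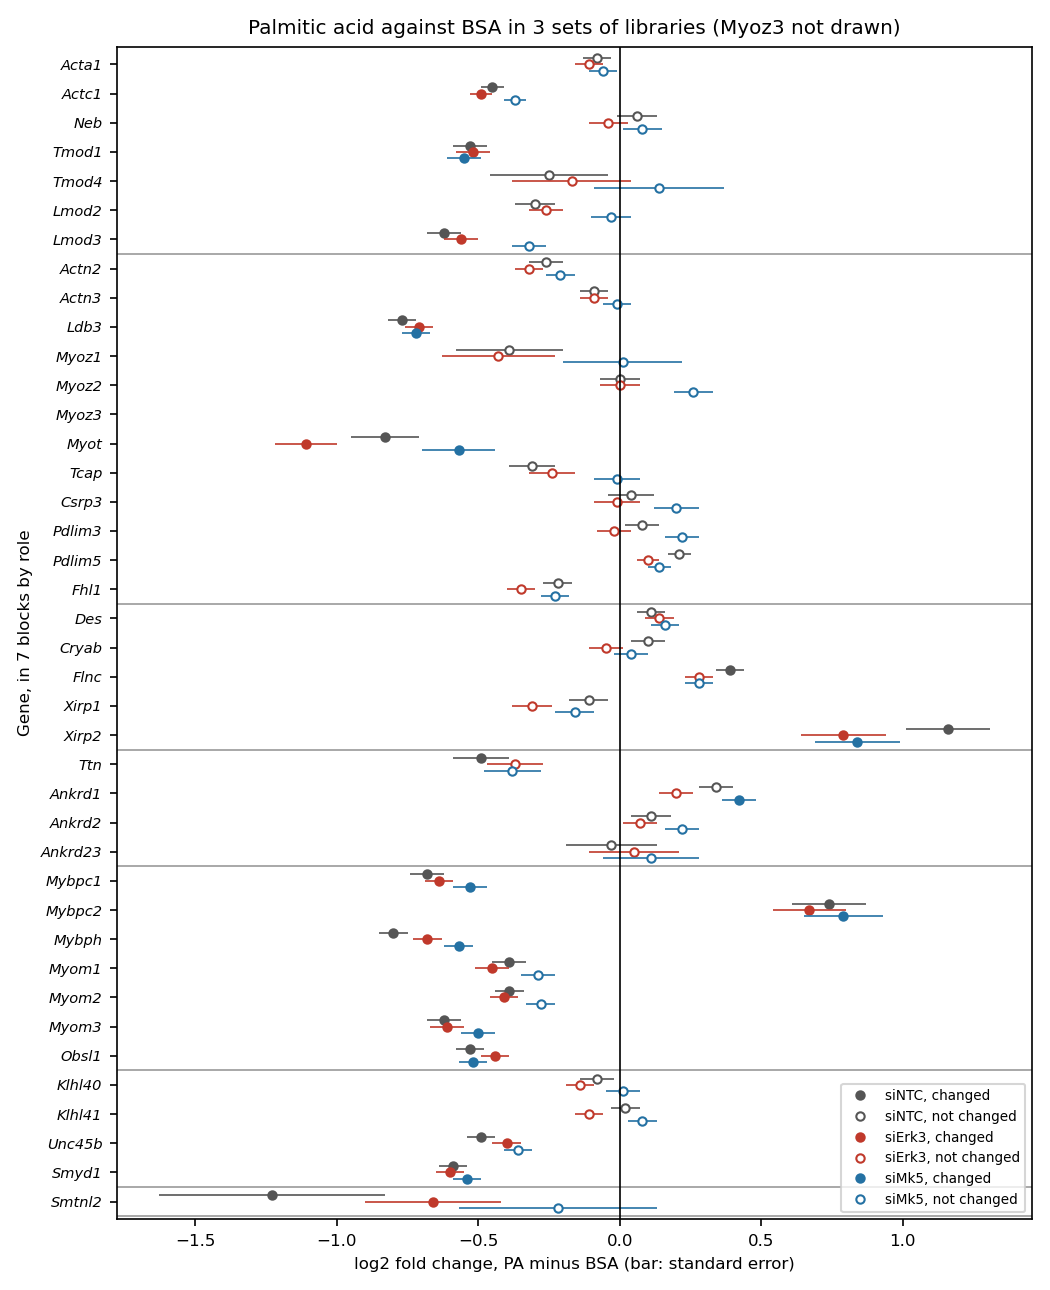
Log2 fold change of PA against BSA (horizontal axis) for 39 of the 40 genes in 7 blocks by role, with the standard error of the fit as bars. Gray, red and blue points are siNTC, siErk3 and siMk5 libraries, and filled points are changed genes. The myosin-binding and M-band block lay below 0 except for Mybpc2, at 0.74, 0.67 and 0.79.

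On the thin filament, 3 of 7 genes fell with PA in siNTC and siErk3 (42.9%, against 15.1% and 16.3% of all genes), and 1 of 7 in siMk5 (14.3%, against 14.6%). Acta1 was at 2833, 3356 and 3380.4 CPM in siNTC BSA and 2984, 3030.1 and 3063 CPM in siNTC PA, with overlap and a log2 fold change of -0.08 ± 0.05 (FDR = 0.256). Actc1 was at 936, 879 and 902 CPM in siNTC BSA and 656, 662 and 666 CPM in siNTC PA. Every PA library of Actc1 was below every BSA library (-0.45 ± 0.04 (SE), FDR = 9.36e-11), and so it was with siErk3 (-0.49). With siMk5 its value of -0.37 had FDR = 4.94e-09 but missed the fold criterion. Lmod3, a leiomodin that nucleates actin, was at 112, 100.7 and 99.5 CPM in siNTC BSA and 70.5, 69.5 and 62.9 CPM in siNTC PA, without overlap (-0.62 ± 0.06 (SE), FDR = 2.01e-10). It fell by 0.56 on the log2 scale with siErk3, and its value with siMk5 was -0.32, under the fold criterion. Tmod1, the pointed-end cap, fell in all 3, by 0.53, 0.52 and 0.55 on the log2 scale. Neb (nebulin) had values of 0.06, -0.04 and 0.08, none past the test.

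At the Z-disc, 2 of 12 genes fell in each PA comparison, Ldb3 and Myot each time. That is 16.7%, near the share of all genes that fell (15.1%, 16.3% and 14.6%). Ldb3 encodes the PDZ-LIM protein Cypher/ZASP, which binds alpha-actinin. It was at 166, 165 and 166 CPM in siNTC BSA and 97.3, 96.7 and 98.3 CPM in siNTC PA, a wide gap beside the spread of either group (-0.77 ± 0.05 (SE), FDR = 3.66e-14). With siErk3 it gave -0.71 and with siMk5 -0.72. Myot was at 7.69, 9.17 and 7.58 CPM in siNTC PA, below all siNTC BSA libraries (-0.83 ± 0.12 (SE), FDR = 3.77e-07). With siErk3, Myot was at 13.9, 15.9 and 15.3 CPM in BSA and 6.70, 6.70 and 7.59 CPM in PA (-1.11 ± 0.11 (SE), FDR = 8.11e-10). With siMk5 it was at 6.52, 6.75 and 6.35 CPM in PA, a log2 fold change of -0.57 ± 0.13 that was -0.73 without siMk5 BSA library 3. The alpha-actinins stayed under the fold criterion, Actn2 at -0.26, -0.32 and -0.21 with an FDR of 0.00198 or less, and Actn3 of fast fibers at -0.09, -0.09 and -0.01. Tcap in siNTC was at 47.3, 43.1 and 45.0 CPM in PA, below its BSA libraries (-0.31, FDR = 0.00127), also under the fold criterion.

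Around the Z-disc the direction was the opposite for some genes. In this block 2 of 5 rose with PA in siNTC, 1 of 5 in siErk3 and 1 of 5 in siMk5, and 0 fell. Of all genes, 15.5%, 15.8% and 15.1% rose in that order. Xirp2 rose in all 3 PA comparisons, with a log2 fold change of 1.16 ± 0.15 (SE), FDR = 9.94e-08 in siNTC, where the libraries given above did not overlap. With siErk3 it was 0.79 ± 0.15 (SE), FDR = 3.58e-05, and with siMk5 0.84 ± 0.15 (SE), FDR = 3.34e-05, or 0.54 without siMk5 BSA library 3. Flnc (filamin C, which crosslinks actin at the Z-disc and repairs it) rose in siNTC (0.39 ± 0.05 (SE), FDR = 8.62e-08), close to the fold criterion, and had 0.28 and 0.28 with siErk3 and siMk5. Des was at 1899.8, 2084 and 2053 CPM in siNTC BSA and 2124, 2189 and 2209 CPM in siNTC PA, a log2 fold change of 0.11 with FDR = 0.0566. Cryab was at 258, 314 and 313 CPM and 306, 319.7 and 323 CPM in the same groups, which overlapped (0.10, FDR = 0.174).

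Titin and its ankyrin repeat partners were divided. With PA, 1 of these 4 genes fell in siNTC, where 15.1% of all genes fell. In siMk5 1 of 4 rose, where 15.1% of all genes rose. In siErk3 0 of 4 changed, against 32.1% of all genes. Ttn fell in siNTC (-0.49 ± 0.10 (SE), FDR = 0.000155) and had -0.37 and -0.38 with siErk3 and siMk5, just under the fold criterion. Without siMk5 BSA library 3, Ttn stood at -0.50 with siMk5 (FDR = 8.24e-05) and was called, as it was in 8 alternatives in all that kept the fold criterion, DESeq2 among them. With siErk3 it was called in 4 such alternatives, at -0.42 to -0.55. Ankrd1 (CARP), a stress-responsive partner of titin, rose with siMk5 (0.42 ± 0.06 (SE), FDR = 1.73e-07), and it was 0.34 without siMk5 BSA library 3, which ends that call. In siNTC and siErk3 its values were 0.34 and 0.20. Ankrd2 gave 0.11, 0.07 and 0.22, without a call.

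The myosin-binding and M-band genes were the block with the most calls. All 7 changed in siNTC and in siErk3 (100%, against 30.6% and 32.1% of all genes), 6 lower and 1 higher. In siMk5, 5 of 7 changed (71.4%, against 29.7%), 4 lower and 1 higher. Mybph was at 967, 1012 and 1009.8 CPM in siNTC BSA and 579.9, 583 and 553 CPM in siNTC PA, with no overlap (-0.80 ± 0.05 (SE), FDR = 1.12e-14), and gave -0.68 and -0.57 with siErk3 and siMk5. Mybpc1 fell in all 3 comparisons, by 0.68, 0.64 and 0.53 on the log2 scale. Mybpc2, the fast paralog of Mybpc1, went the other way. It was at 12.2, 14.04 and 16.0 CPM in siNTC BSA and 23.7, 23.9 and 23.5 CPM in siNTC PA, and all PA libraries were above all BSA libraries (0.74 ± 0.13 (SE), FDR = 1.52e-05). With siErk3 its log2 fold change was 0.67 ± 0.13, and with siMk5 0.79 ± 0.14, or 0.53 without siMk5 BSA library 3. The myomesins, which bridge thick filaments at the M-band, fell together in siNTC. Myom3 was at 191, 189.7 and 195 CPM in siNTC BSA and 122, 126 and 126 CPM in siNTC PA, again apart (-0.62 ± 0.06 (SE), FDR = 7.43e-11), and fell by 0.61 with siErk3 and 0.50 with siMk5. Myom1 and Myom2 each gave -0.39 in siNTC and -0.45 and -0.41 in siErk3, and in siMk5 -0.29 and -0.28 did not reach the fold criterion. Obsl1, an obscurin-like link to myomesin, gave -0.53, -0.44 and -0.52, and was called each time.

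Of the 4 assembly factors, Smyd1 fell in all 3 comparisons and Unc45b in 2. That is 2 of 4 in siNTC, 2 of 4 in siErk3 and 1 of 4 in siMk5. Of all genes, 15.1%, 16.3% and 14.6% fell in that order. Smyd1 gave -0.59 ± 0.05 (SE), FDR = 5.51e-11 in siNTC, with the CPM listed above, and -0.60 and -0.54 with siErk3 and siMk5. Unc45b, the myosin chaperone, fell by 0.49 in siNTC and 0.40 in siErk3 (-0.37 and not called without siErk3 BSA library 3), and gave -0.36 in siMk5 with FDR = 1.19e-06, under the fold criterion. The Kelch proteins Klhl40 and Klhl41, which keep nebulin and leiomodin stable, lay between -0.14 and 0.08 and were not called. Smtnl2 fell in siNTC (-1.23 ± 0.40 (SE), FDR = 0.0126) on few counts, and its FDR was 0.0686 without siNTC PA library 3. With siErk3 it gave -0.66 ± 0.24 (SE), FDR = 0.0252, a call lost in 5 of 14 alternatives, and with siMk5 -0.22 ± 0.35.

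No gene of the 40 was called by the interaction test in edgeR, which asks if an effect of silencing differed between BSA and PA. That held for siErk3 (0 called, 0.0367% of all genes) and for siMk5 (0 called, 0.211%). With siMk5, 32 of the 40 interactions lay above 0, with a median of 0.09 (-0.02 over all genes). Without siMk5 BSA library 3, 14 lay below 0 and the median was 0.03 (-0.01 over all genes). With siErk3, 24 lay below 0, with a median of -0.03 (-0.03 over all genes). At an unadjusted p under 0.05 there were 1 of 40 for siErk3, Xirp1, and 5 of 40 for siMk5, Lmod2, Lmod3, Mybph, Myoz2 and Tcap, where 6.10% and 7.43% of all genes did so, and DESeq2 also called 0 in each. Of the 12 myotube markers, 8 did so for siMk5 (66.7%), and 6 without siMk5 BSA library 3, with 0 called. The nearest to the threshold was Lmod3 with siMk5, with an interaction of 0.30 ± 0.08 (FDR = 0.179). For Xirp2, which had different log2 changes with PA in the 3 sets of libraries, the interaction was -0.37 ± 0.21 with siErk3 (FDR = 0.835) and -0.32 ± 0.21 with siMk5 (FDR = 0.758). Without siMk5 BSA library 3, that of Xirp2 with siMk5 was -0.61 (FDR = 0.0554) and that of Lmod3 was 0.25 (FDR = 0.593), so the order of the 2 genes rests on this library. For Smtnl2 it was 0.58 ± 0.47 and 1.02 ± 0.54, so its standard error was too large to resolve a difference of this size.

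Across the 4 comparisons of silencing with siNTC, 34 of the 40 genes were not called, and without Myoz3 their log2 fold changes lay between -0.64 and 0.29. In these comparisons taken singly, 0.785% and 0.556% of all genes changed with siErk3 in BSA and PA, and 0.0643% and 0.547% with siMk5. The share of all genes called in none of the 4, or in none of the 7 below, was not counted, so neither count is read as stability of this list. Of the 40, 19 genes were called in none of the 7 comparisons, with PA or silencing. They include Acta1, Des, Cryab, Neb, Actn3, Csrp3 (muscle LIM protein), Pdlim3, Pdlim5 and Fhl1. Values near 0 for highly expressed genes, such as -0.11 ± 0.05 for Acta1 and -0.04 ± 0.07 for Neb with PA in siErk3, carried small standard errors, whereas Tmod4 (-0.61 ± 0.22 with siMk5 in BSA) and Myoz1 (-0.64 ± 0.20) did not.

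The rest of the contractile apparatus was read from lists set by name, and the share called is given beside that of all genes. Of 22 genes of the thick filament and of thin filament regulation, 3 rose with siErk3 in BSA (13.6%, against 0.588%) and 0 fell. Myh8, Myh7 and Myh3, myosin heavy chains of developing and slow muscle, gave 0.57, 0.51 and 0.39 on the log2 scale. Most of the list lay on the other side, 17 of the 22 below 0, with a median of -0.06 (0.02 over all genes). Without siErk3 BSA library 3, Myh3 stood at 0.33 and was not called, and 18 lay below 0 with a median of -0.09. With siErk3 in PA, 2 rose, Myh8 at 0.60 and Myh7 at 0.38 (9.09%, against 0.432%). Another 2 fell, the regulatory light chain Myl2 at -0.82 and the myosin light chain kinase Mylk2 at -0.44 (9.09%, against 0.124%). In this comparison 13 of the 22 lay below 0, with a median of -0.02 (0.00 over all genes). With siMk5 in BSA, Myh7 rose (0.39), 1 of 22 or 4.55%, against 0.0138%. Here 18 of the 22 lay below 0, with a median of -0.15 (0.01 over all genes). Without siMk5 BSA library 3, 17 lay below 0 with a median of -0.10. With siMk5 in PA, the light chain Myl3 rose (0.92) and Myh4, the fastest heavy chain, fell (-0.43). Each is 4.55%, against 0.0551% higher and 0.491% lower, and 15 of the 22 lay above 0 with a median of 0.02 (0.00 over all genes). In the interaction of siMk5 with PA, 10 of the 22 had an unadjusted p under 0.05 in edgeR (45.5%, against 7.43%), and 0 were called. Without siMk5 BSA library 3 it was again 10. With PA, 8 of the 22 fell in siNTC (36.4%, against 15.1%), 8 in siErk3 (36.4%, against 16.3%) and 5 in siMk5 (22.7%, against 14.6%), with Tpm1 (tropomyosin) at -0.70, -0.82 and -0.74. Of 25 other Z-disc, I-band and M-band genes, 0 changed with siErk3 or siMk5 in BSA by edgeR, against 0.785% and 0.0643%. At an unadjusted p under 0.05 there were 7 in each (28.0%, against 10.6% and 6.89% of all genes). Without siErk3 BSA library 3 and siMk5 BSA library 3 there were 4 and 2. With siErk3 in PA, Igfn1 alone rose (0.60), 4.0% against 0.432%. With PA in siNTC, 12 of the 25 fell (48.0%, against 15.1%) and 1 rose (4.0%, against 15.5%). Lmod1 gave -2.15, Palld (palladin) -0.80 and Fhl2 -0.67. Of 17 costamere genes, which tie the Z-disc to the membrane, 5 changed with PA in siNTC (29.4%, against 30.6%), a share near that of all genes, with the talins Tln1 at 0.73 and Tln2 at -0.77. Of 15 muscle transcription factors, 7 fell with PA in siNTC (46.7%, against 15.1%), including Tead4 (-0.71), which binds MCAT motifs, and Myog (-0.59), which binds E-boxes. In the same list Vgll2, a cofactor of the TEAD factors, rose with siErk3 in BSA (0.64) and in PA (0.48). That is 1 of 15 each time (6.67%, against 0.588% and 0.432%). Of 17 sarcomere chaperones and turnover genes, 8 changed with PA in siNTC (47.1%, against 30.6%), 4 up and 4 down, with Sqstm1 (p62, an autophagy receptor) at 2.42 and Hsp90aa1 (a chaperone that works with Unc45b) at 0.98. Hspb7, a small heat shock protein that binds filamin C, was the 1 gene of these 17 that fell with siMk5 in BSA (5.88%, against 0.0505%). It stood at -0.50, and at -0.33 without siMk5 BSA library 3 it was not called.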

How the data were processed

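The 18 libraries of C2C12 myotube RNA were grouped by the sample labels. The authors deposited counts of read pairs per gene without normalization. Per their methods, reads were trimmed with TrimGalore, aligned to GRCm39 with STAR, and counted with featureCounts 2.0.0 (Ensembl 105, reverse strand, primary alignments, mapping quality of at least 3). Duplicates were marked, and the counting command in the header of the table sets no option to drop them. The sample labels name another build, and the header of the count table was followed. The other deposited table gives values on a log2 scale, which equal the log2 of a scaled count plus 1 (relative deviation at most 3.6e-14), and served only for that check.

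Counts were normalized by TMM and fitted in edgeR 4.0.16 (quasi-likelihood, limma 3.58.1, R 4.3.3), with 1 coefficient per group, on 21772 genes with at least 10 counts in total. Changed means FDR below 0.05 (Benjamini-Hochberg, all genes tested) and a fold change above 1.3, the criteria in the authors' methods. Counting error weighs on genes with few counts. Values in every library are given for genes changed by silencing, the 10 with the largest change among those changed by PA in siNTC, and the 5 with the highest level per length. The 40 genes, the lists and the motifs were chosen with earlier results of these data known. Alternatives were DESeq2 1.42.0, its size factors, other count filters, FDR alone, only the groups compared, a replicate block and leaving out each library. The 18S share as a covariate was added after the data were seen. Tests were first run on simulated counts. Promoters come from a RefSeq table (GRCm38.p6) and were placed in GRCm39 by exact match. Python 3.11.15, numpy 2.4.6, pandas 2.3.3 and matplotlib 3.10.9 were used.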

Additional observations from a re-analysis of the deposited data

How the results depend on the processing

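Of 44 calls of genes given by library, 34 were kept under every alternative and 0 changed direction. The criterion of FDR alone called 6 genes with siErk3 in BSA, 6 with siErk3 in PA and 2 with siMk5 in PA. It called 26 with PA in siErk3, 26 with PA in siMk5, and 6 in BSA and 3 in PA for siErk3 against siMk5. With the 18S share as a covariate, chosen after seeing the data, 1 gene was called with siErk3 in BSA, 1 with siMk5 in BSA, 0 with siMk5 in PA and 1 for siErk3 against siMk5 in BSA, and why it moved these counts was not tested. For siMk5 in PA the count was 0 with filterByExpr and with DESeq2, and 2 with no count filter and with only the groups compared. Leaving out each library in turn gave 1 to 4 genes for siMk5 in BSA, 0 to 0 for siMk5 in PA and 3 to 5 for siErk3 against siMk5 in BSA. Flnc, Myom1 and Unc45b, close to the fold criterion with PA, fell short of it in some alternatives, at 0.34, -0.36 and -0.37 at the least, all with FDR below 0.05. Other counts of the 40 genes stayed within 1.5 times. Over all genes, the 171 called with siErk3 in BSA became 263 by FDR alone, 113 without siNTC BSA library 2 and 111 with the 18S covariate, and the 121 in PA became 186 by FDR alone, 208 with no count filter and 71 with only the groups compared. The 14 with siMk5 in BSA became 61 with no count filter, 6 without siNTC BSA library 2, 7 without siMk5 BSA library 3, 9 without siNTC BSA library 1 and 25 without siMk5 BSA library 1, and the 128 for siErk3 against siMk5 in BSA became 201 with no count filter and 78 with the covariate. Interactions moved most, from 8 to between 0 and 72 for siErk3 and from 46 to between 0 and 130 for siMk5.

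The replicate numbers did not pair the libraries. Same-numbered libraries had a mean correlation of -0.01 (-0.42 to 0.30) in their deviations from the group means over 12734 genes, and 5 of 18 correlated best with their own number. The replicate block gave 3 genes with siErk3 in BSA, 3 with siMk5 in BSA, 3 and 1 in PA, and 18, 16 and 12 with PA. Counts of a few reads limit Smtnl2, Tmod4, Myoz1 and Myoz3.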
